A study of Mus musculus with 2 samples.

Results

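Plasmacytoid dendritic cells (pDC) were taken from the single-cell data as the cells that hold at least 3 unique molecular identifiers (UMIs, each standing for 1 captured RNA molecule) of Siglech, the sialic acid-binding lectin that marks this cell type in the mouse. Among 17092 deposited barcodes, 14142 passed the filters (200 to 9000 detected genes, at most 30% mitochondrial UMIs and at least 1000 UMIs), and 109 of these were Siglech-positive. The control library (Ctrl) gave 97 of them and the library labelled cKO gave 12. The study compared mouse bone marrow with and without the kinase MAP4K4 by droplet-based 3′ scRNA-seq, with 1 library per genotype. With 1 library on each side and cells that are not replicates, comparisons are given as values with counting intervals and without p-values.

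The mice were littermates on a C57BL/6 background, 13 to 14 weeks old per the labels. The study's methods write the control genotype as Mx1-Cre Map4k4-/- and the knockout as Mx1-Cre Map4k4 f/f (Map4k4-cKO), and the labels say only control and Map4k4-cko. Whether the minus sign there stands for a deleted or for an unfloxed allele is not clear from the methods. Elsewhere the study calls the control cells of these data wildtype. What Ctrl carries therefore rests on its label and on that wording. Mx1-Cre is switched on by interferon and acts in blood-forming cells and in other cells that respond to interferon, not in 1 cell type. The methods describe injections of poly I:C, an RNA mimic that raises interferon, for the floxed mice and do not say whether the controls received it. Each library was a mixture of 2 parts of c-Kit-enriched progenitors and 3 parts of bone marrow after red cell lysis, so the share of any cell type depends on this mixing. The number of mice behind each library is not given in the sources used here. The Ctrl library held 71527701 UMIs in 10220 barcodes and the cKO library held 64393950 UMIs in 6872 barcodes.

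pDC develop in the bone marrow from Flt3-expressing progenitors and leave it for blood and lymphoid organs. They detect viral nucleic acids through endosomal Toll-like receptors and are known for releasing large amounts of type I interferon. Their identity depends on the E protein TCF4 (E2-2) with IRF8, RUNX2, SPIB and BCL11A, and is opposed by ID2, which blocks E proteins. They also carry some transcripts of the lymphoid programme, and they present antigen less readily than conventional dendritic cells (cDC).

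E proteins bind the short motif CANNTG, and TCF4 can bind the form CAGGTG. The promoters of Siglech and of Ccr9 and Klk1, which had large ratios in these cells, are shown because each holds this motif 1 time (CAGGTG, or CACCTG on the opposite strand, in capitals). They are 300 bases each, from 250 before to 50 after the annotated start, read 5′ to 3′ on the gene's strand from RefSeq on GRCm38.p6. Siglech lies on the plus strand at chr7:55767934-55768233, Ccr9, the receptor for the chemokine CCL25, on the plus strand at chr9:123766961-123767260, and Klk1, a kallikrein protease, on the plus strand at chr7:44225110-44225409.
Siglech: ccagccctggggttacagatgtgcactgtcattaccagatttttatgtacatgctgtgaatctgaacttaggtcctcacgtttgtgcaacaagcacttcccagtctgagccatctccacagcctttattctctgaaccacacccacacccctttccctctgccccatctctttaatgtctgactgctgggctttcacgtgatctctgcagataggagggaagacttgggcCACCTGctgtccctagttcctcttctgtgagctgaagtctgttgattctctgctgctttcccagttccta
Ccr9: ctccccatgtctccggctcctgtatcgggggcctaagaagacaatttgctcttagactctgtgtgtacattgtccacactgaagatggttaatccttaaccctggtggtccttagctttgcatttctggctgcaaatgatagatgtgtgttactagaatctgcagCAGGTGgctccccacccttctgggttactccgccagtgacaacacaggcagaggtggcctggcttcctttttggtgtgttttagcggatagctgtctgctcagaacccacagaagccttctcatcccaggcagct
Klk1: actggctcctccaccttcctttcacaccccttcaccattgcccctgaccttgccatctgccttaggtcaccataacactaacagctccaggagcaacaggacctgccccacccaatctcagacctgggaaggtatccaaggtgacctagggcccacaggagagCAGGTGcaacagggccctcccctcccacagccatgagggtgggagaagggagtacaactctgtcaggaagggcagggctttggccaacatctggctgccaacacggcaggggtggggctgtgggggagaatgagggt

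Over the genome the motif CAGGTG was found on either strand in 22.6% of 27025 promoters of this length. It was found in 10 of 23 promoters (43.5%) of Siglech and the pDC surface list below. Among genes at least 4-fold higher in Siglech-positive Ctrl cells it was found in 28 of 136 (20.6%). Of 1574 promoters of the genes compared in Ctrl below it was found in 18.5%, and of 17 promoters of the 30 leading genes in 6 (35.3%). The motif GAGGAA, the kind of core that SPIB and its relatives bind (TTCCTC on the opposite strand, sharing at most its first G with CAGGTG), was found in 31.3% of all promoters, in 13 of the 23 (56.5%) and in 44 of the 136 (32.4%). These matches describe the sequence and are not measured binding sites.

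In Ctrl, 97 of 8795 kept cells were Siglech-positive, or 1.10% (95% Clopper-Pearson interval, 0.895 to 1.34). In the library labelled cKO, 12 of 5347 were, or 0.224% (0.116 to 0.392). The share was 4.91-fold higher in Ctrl (2.69 to 9.84), and on the log2 scale the cKO over Ctrl ratio was -2.30 (-3.30 to -1.43). Here and below, intervals cover counting error only, and differences between mice, mixtures and droplet runs cannot be told apart from genotype. The other cells differed in makeup as well. B-lineage cells (Cd79a at least 3 UMIs) numbered 541 in Ctrl and 40 in cKO, and the part of this in the share of Siglech-positive cells was not tested.

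**Figure D1:**
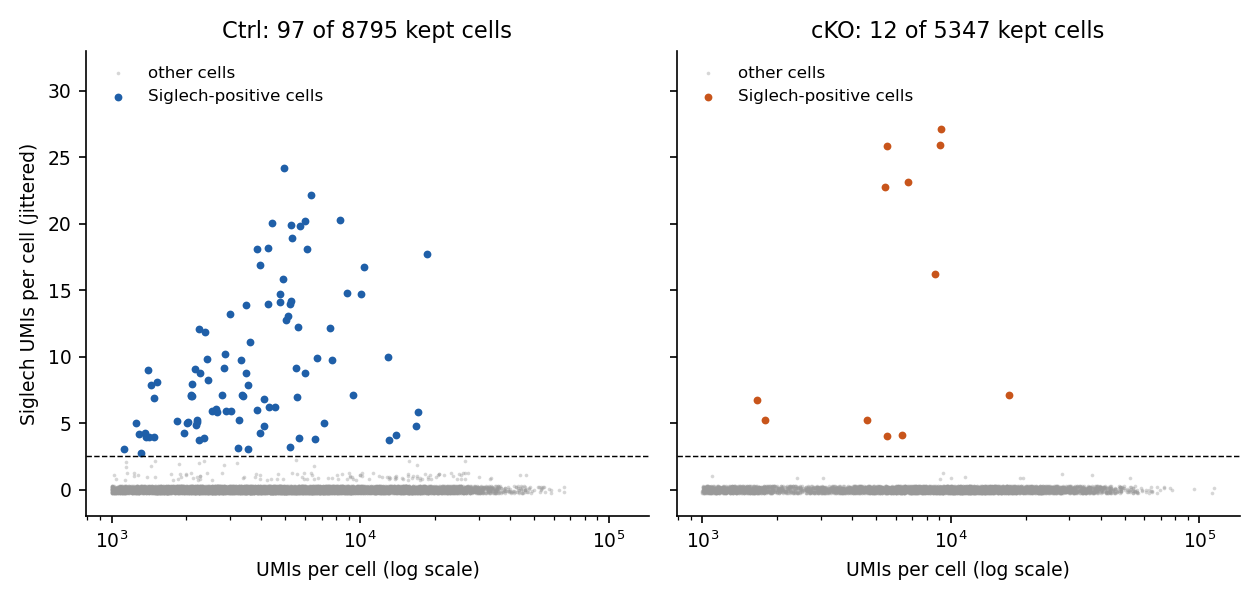
Siglech UMIs per cell (vertical axis, jittered) against total UMIs per cell (horizontal axis, log scale) for the kept cells of the Ctrl and cKO libraries. The dashed line is drawn just below the threshold of 3 UMIs, above which lie 97 Ctrl and 12 cKO cells, and most grey cells sit at 0.

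Siglech-positive Ctrl cells held 1118 to 18604 UMIs, with a median of 3548 against 4957.5 in the other Ctrl cells, yet they had slightly more detected genes (median 1764 against 1628.5). After each cell was thinned to 1000 UMIs the median was 662 genes against 544. Their mitochondrial share had a median of 2.77% against 1.39%. The 12 cKO cells held 1660 to 17154 UMIs, with a median of 5961 against 8809 in the other cKO cells. Between the libraries 3010 barcode strings were shared, and 34 Ctrl and 7 cKO Siglech-positive cells had a string that also occurs in the other library, but no string was Siglech-positive in both.

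Siglech was used to choose the cells, so its level is a description. It ranged from 3 to 24 UMIs with a median of 8 in the 97 Ctrl cells, and from 4 to 27 with a median of 11.5 in the 12 cKO cells. Just outside the threshold in Ctrl lay 14 cells with 2 Siglech UMIs, of which 92.9% held Tcf4 at a summed level of 844 CPM (UMIs summed over cells and scaled to a total of 1000000). Just inside lay 5 cells with 3 UMIs, all with Tcf4, at 2779 CPM. The 112 cells with 1 Siglech UMI held Tcf4 in 42.0%, at 114 CPM, against 24.0% and 59.4 CPM of the 8572 cells with none, and they were deep (median 9170.5 UMIs). Cox6a2 was found in 10.7% of the cells with 1 UMI, at 19.4 CPM, against 1.18% and 1.89 CPM in those with none. In cKO the 12 cells with 1 UMI held Tcf4 at 98.8 CPM, against 23.4 CPM with none. In Tcf4 level the Ctrl cells with 2 UMIs thus lay between the Siglech-positive cells and those with fewer UMIs, and the cells with 1 UMI lay above those with none.

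The label was checked against 13 other pDC markers. Siglech-positive cells held a median of 10 of the 13 in Ctrl and 11 in cKO, with a lowest cell at 4 in Ctrl and 6 in cKO. Tcf4 was detected in 96 of the 97 Ctrl cells, with a median of 10 UMIs and a highest of 29, against 24.3% of the other Ctrl cells. Irf8 was detected in every Siglech-positive cell of both libraries, with a Ctrl median of 15 UMIs, against 25.7% of the other Ctrl cells. These shares in other cells may include free RNA as well as cells that express the gene, which was not tested. Detection also grows with depth, so depth was made equal. At 1000 UMIs per cell Tcf4 was found in 89.7% of Siglech-positive and 5.68% of other Ctrl cells, and Irf8 in 95.9% and 9.98%. In cKO the thinned shares were 83.3% and 2.10% for Tcf4, and 100% and 3.56% for Irf8. Runx2, Bst2 and Bcl11a were found in 94.8%, 92.8% and 91.8% of the Ctrl cells, without thinning, against 16.6%, 23.5% and 27.9% of the other cells. Ccr9 was found in 71.1% (against 0.931%), Ly6d and Spib in 62.9% each (7.61% and 5.85%), and Pacsin1, Klk1 and Cd209d in 49.5%, 36.1% and 25.8% (0.253%, 0.230% and 0.172%). Tcf4 and Irf8 were thus present in nearly every chosen cell, and other markers in a smaller share.

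B-cell and macrophage markers were sparse in the Ctrl Siglech-positive cells. Of 8 B-cell markers, Cd79a had 4 UMIs, Pax5 1 and Ms4a1 1 over all 97 cells. The list had 34 UMIs in all, of which 18 were Cd79b (40.4 against 64.0 CPM), and it took 0.00762% of the UMIs of these cells against 0.0325% in the other cells. In cKO all 8 UMIs of the list were Cd79b (98.0 against 16.3 CPM). In Ctrl the macrophage list had 10 UMIs in all. Other lists were less sparse. The monocyte list had 698 UMIs (0.156% against 0.340% of UMIs in the other cells). Of its 9 genes 2 were higher and 7 lower. Chil3, its most abundant gene, was at 677 against 2620 CPM (355 CPM without the 3 cells described below). Ly86, of the same list, was at 419 against 55.6 CPM. The plasma cell list had 342 UMIs (0.0767% against 0.285%), with 4 of 8 genes higher and 4 lower. Its most abundant gene, Igha, was at 603 against 2331 CPM. The erythroid list had 282 UMIs (0.0632% against 0.380%). The cDC list had 260, with a larger share in Siglech-positive than in other cells. Neutrophil RNA was the most abundant. S100a8 was found in every Siglech-positive cell, and 12 neutrophil genes took 3.68% of the UMIs summed over Ctrl Siglech-positive cells, against 16.0% in the others. The ratio of S100a9 to S100a8 was close within and outside the chosen cells, at 1.30 in both for Ctrl, and at 1.24 and 1.25 for cKO, and so were Retnlg per S100a8 in Ctrl (0.0597 and 0.0596) and Ngp per S100a8 in cKO (0.241 and 0.242). Camp per S100a8 was 0.348 within and 0.395 outside in Ctrl, and 0.236 and 0.276 in cKO. Ngp per S100a8 was 0.284 and 0.255 in Ctrl, and Retnlg per S100a8 was 0.0949 and 0.0812 in cKO. Per Ctrl Siglech-positive cell the neutrophil share had a median of 1.79% and a highest value of 36.5%. In 3 Ctrl cells neutrophil genes other than S100a8 and S100a9 took 10.6%, 7.89% and 2.30% of the UMIs, and these cells also held 15, 5 and 16 Tcf4 UMIs. No doublet caller was run. Without these 3 cells the 12 neutrophil genes took 2.00% of the summed UMIs. In the Ctrl Siglech-positive cells S100a8 was then at 6194 CPM (11125 with them), Camp at 1463 (3870) and Retnlg at 486 (664). The Ctrl ratios of Camp and Retnlg to S100a8 above therefore depend on these 3 cells. Of the neutrophil genes named hereafter, values without them are given where they moved by more than 1.5 times. A further Ctrl cell had 16.4% neutrophil UMIs, mostly S100a8 and S100a9 (477 and 654 of its 7676 UMIs), with 16 Tcf4 UMIs, and stays in those values. Without the 3 cells and all others over 5%, 89 cells remained and the share was 1.67%.

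Map4k4, the targeted gene, was measured in Siglech-positive cells at 215 CPM in Ctrl (96 UMIs) and 257 CPM in the library labelled cKO (21 UMIs). The log2 ratio of cKO over Ctrl was 0.26 (-0.50 to 0.95), against -0.16 in all other cells. The targeted gene therefore does not separate the libraries in these cells, and every direction between them rests on the labels. The counts are 3′ tags per gene, which may lie outside the deleted part. By RT-PCR, a separate measure, the study reports that Map4k4 transcript was lost in stem and progenitor cells after poly I:C. Within Ctrl, Map4k4 was 3.02-fold higher in Siglech-positive than in other cells (215 against 71.4 CPM, log2 1.59, 1.29 to 1.88), against 195 CPM in monocytes and 131 CPM in B-lineage cells.

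Siglech-positive Ctrl cells were compared with the 8698 other Ctrl cells over 1996 genes with at least 100 CPM on one side, and 181 were at least 4-fold higher (9.07%) and 63 at least 4-fold lower (3.16%). At 2-fold, 437 were higher (21.9%) and 168 lower (8.42%). The cells were chosen by 1 gene of the same libraries, so these contrasts are descriptions with intervals and not tests. The median log2 ratio over all 1996 genes was 0.24, and the list medians below are to be read against it. In cKO, the median over 2061 genes was 0.80, with 379 genes at least 4-fold higher (18.4%) and 143 lower (6.94%). Of the 181 Ctrl genes, 177 were also at least 4-fold higher in cKO, and of the 63, 48 were at least 4-fold lower.

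The pDC surface and cell biology list is described first. All 30 genes were detected in Siglech-positive cells, 22 passed the 100 CPM floor in Ctrl, and 20 of those 22 were at least 4-fold higher (median log2 5.21). Of the 22, 19 passed only through the Siglech-positive side, and such genes have to be higher, so counts among genes that passed describe levels and support nothing. Without any floor 28 of the 30 were higher and 2 lower. The share of all genes that were higher without a floor is not given. This count and the like counts below therefore have no background beside them. Klk1 stood at 305 CPM in Siglech-positive and 0.443 CPM in other Ctrl cells (log2 9.43, 8.86 to 10.04), and at 270 and 0.0475 CPM in cKO, where 1 cell held 17 of the 22 UMIs (69.0 CPM without it). Ccr9, which guides pDC towards the gut and thymus, stood at 735 and 1.60 CPM in Ctrl (log2 8.84, 8.53 to 9.17) and at 527 and 0.348 CPM in cKO. Cox6a2, the muscle form of a cytochrome c oxidase subunit, stood at 892 and 2.83 CPM in Ctrl (log2 8.30) and at 1140 and 0.554 CPM in cKO. For these genes the other cells held next to nothing in either library.

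Further genes of the list followed the same pattern. The lectin Cd209d was at 157 against 0.243 CPM in Ctrl and the membrane-bending protein Pacsin1 at 191 against 0.329 CPM. Bst2 (tetherin, the antigen of the pDC antibody PDCA-1) was at 2018 against 59.7 CPM in Ctrl (log2 5.08) and at 3308 against 42.2 CPM in cKO. Ly6d, shared with early B-lineage cells, was at 1211 against 29.9 CPM (log2 5.34). Of the 22 that passed the floor, those not 4-fold higher were Ly6c2, at 883 CPM against 1364 in the other cells (log2 -0.63), and Plac8, at 2442 against 1937 CPM (log2 0.33). Both are abundant in myeloid cells of the marrow. The other lower gene of the list stayed under the floor. Havcr1, a phosphatidylserine receptor that stayed under the floor, had 38 UMIs in Siglech-positive Ctrl cells, 85.2 CPM, against 0.0572 CPM in the rest.

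Beyond that list, the leading genes by ratio in Ctrl included Gm21762 (231 against 0.300 CPM), Cd300c, Ptprf, Pdzd4 and Lifr (242 against 1.93 CPM), the receptor for leukaemia inhibitory factor. Cd4 was at 128 against 1.03 CPM, and Kmo, an enzyme of tryptophan breakdown, at 397 against 4.47 CPM. Ccnd1, which encodes cyclin D1, was at 498 against 9.86 CPM in Ctrl and at 809 against 2.39 CPM in cKO. Across the 8795 kept Ctrl cells thinned to 1000 UMIs, Ccr9 was the gene most like Siglech (Spearman rho 0.522 among 10846 genes), followed by Cox6a2 (0.464) and Klk1 (0.382). These correlations rest on shared zeros and on few cells, 67 with Ccr9 at that depth, and are descriptions.

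**Figure D2:**
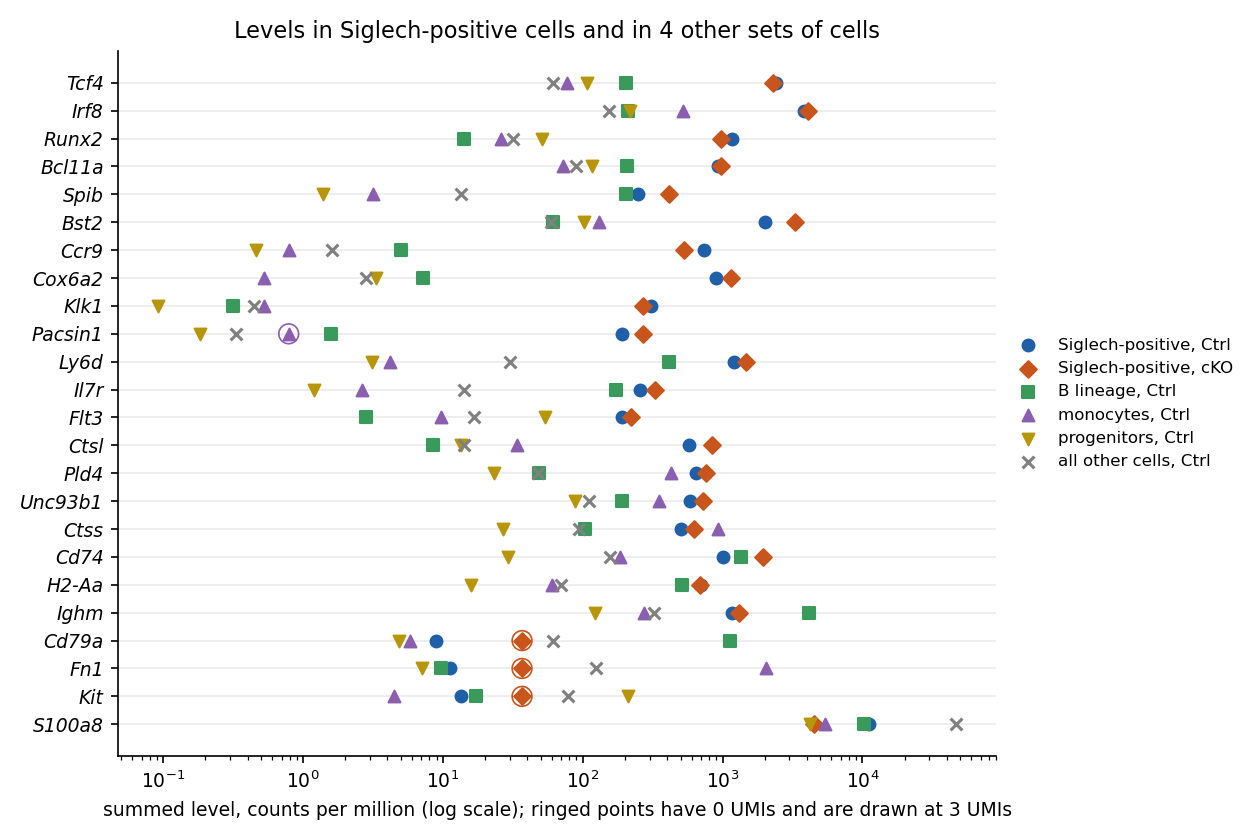
Summed level in CPM (horizontal axis, log scale) of 24 genes in the Siglech-positive cells of both libraries and in 4 sets of other Ctrl cells. Points are sums over 1 library without error bars, and Ccr9, Cox6a2, Klk1 and Pacsin1 of the other sets lie at 7.22 CPM or lower, whereas the lowest of them in Siglech-positive cells, Pacsin1 in Ctrl, lies at 191 CPM.

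Of the listed transcription factors of pDC, more were higher than lower in Siglech-positive cells. Of 18, 14 passed the floor, 9 of them only through the Siglech-positive side, and 11 were at least 2-fold and 8 at least 4-fold higher in Ctrl (median log2 2.52). Without any floor 15 were higher and 3 lower. Tcf4 was at 2397 against 61.4 CPM in Ctrl (log2 5.29, 5.19 to 5.38) and at 2304 against 23.6 CPM in cKO. Irf8 was at 3798 against 153 CPM (log2 4.63) and at 4093 against 63.5 CPM in cKO, and Runx2 at 1159 against 31.8 CPM and at 980 against 19.7 CPM. Levels in neighbouring types set these apart to different degrees. Tcf4 was at 205 CPM in B-lineage cells, 107 CPM in progenitors (Kit at least 2 and Cd34 at least 1 UMI) and 77.5 CPM in monocytes (Fn1 at least 3 and Ccr2 at least 1 UMI). Runx2 was at 50.6 CPM in progenitors and lower in the other two. Irf8 reached 517 CPM in monocytes, and Spib, at 249 CPM in Siglech-positive cells, was nearly as high in B-lineage cells, at 205 CPM. Spib alone among these 4 therefore did not separate Siglech-positive from B-lineage cells by more than 2-fold.

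The factors named next that passed the floor showed smaller ratios. Bcl11a was at 919 against 88.8 CPM (log2 3.37), Mef2c at 708 against 104 CPM (log2 2.76) and the E protein Tcf12 at 229 against 47.3 CPM (log2 2.27). The third E protein, Tcf3, was at 117 against 79.0 CPM (log2 0.56, 0.14 to 0.95), so the E proteins were unequal in this contrast. Irf7, which drives interferon transcription, was at 137 against 16.8 CPM (log2 3.02) in Ctrl and at 61.3 against 14.4 CPM in cKO. Mycl stayed under the floor at 71.7 against 0.843 CPM, a larger ratio than that of Tcf4. Of 12 factors opposed to pDC or of cDC, 5 were higher and 7 lower in Ctrl without any floor, and 3 and 9 in cKO. Klf4, the most abundant of them in Siglech-positive cells, stayed under the floor of 100 CPM in Ctrl. Over the 12 cKO cells Klf4 was at 208 against 25.7 CPM (log2 3.02). Id2 was at 13.5 against 87.4 CPM in Ctrl (6 UMIs, log2 -2.70, -4.15 to -1.58) and at 49.0 against 126 CPM in cKO. Cebpe, a granulocyte factor, was at 42.6 against 230 CPM in Ctrl (19.1 CPM without the 3 cells rich in neutrophil genes) and had no UMI in the cKO cells.

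More of the listed genes of nucleic acid sensing were higher than lower in Siglech-positive cells, whereas no interferon transcript was detected. Of 25 sensing genes, 20 were higher and 5 lower in Ctrl without any floor, and 10 passed it, 7 only through the Siglech-positive side. Of the 10, 9 were at least 2-fold and 7 at least 4-fold higher in Ctrl (median log2 2.42). Unc93b1, which carries Toll-like receptors to endosomes, was at 587 against 111 CPM (log2 2.41). Pld4, an endosomal nuclease, was at 641 against 47.7 CPM (log2 3.75), and the proteases Ctsl and Ctsb, of a family that cleaves these receptors, were at 576 against 14.0 CPM (log2 5.36) and 1009 against 169 CPM (log2 2.58). Pld4 and Unc93b1 were shared with monocytes, at 428 and 353 CPM, whereas Ctsl was at 34.2 CPM there. Tlr7, the receptor for single-stranded RNA, had 31 UMIs (69.5 against 4.63 CPM, log2 3.91), and was found in 20.6% of the Ctrl cells. Tlr9 had no UMI in the Siglech-positive cells of either library, which in the 446030 UMIs of the Ctrl cells allows a level of up to 6.73 CPM.

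All 20 type I and type III interferon genes were at 0 UMIs in the Siglech-positive cells of both libraries, again under 6.73 CPM each in Ctrl and under 36.8 CPM in cKO. Interferon-stimulated genes were mixed. Of 28, 12 were higher and 16 lower in Ctrl without any floor, and 6 passed it, 5 only through the Siglech-positive side. All 6 were at least 2-fold higher, and 3 were at least 4-fold higher, Bst2, Stat2 (184 against 22.2 CPM, log2 3.05) and Trim30a (276 against 53.6 CPM, log2 2.36). In Siglech-positive cells Ifit1, Ifit3 and Isg20 had no UMI in either library, and Rsad2 had none in Ctrl and 2 in cKO. Ifnar1, a chain of the type I interferon receptor, was at 186 against 27.6 CPM (log2 2.75) in Ctrl and at 135 against 22.2 CPM in cKO.

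Of the listed genes of major histocompatibility complex (MHC) class II, which presents antigen to CD4 T cells, more were higher than lower in Siglech-positive cells. Of 14 genes of the list, 10 were higher in Ctrl and 4 lower without any floor. The 6 that passed the floor were at least 4-fold higher (median log2 2.56), 5 of them passing only through the Siglech-positive side, as did all 7 that passed in cKO. H2-Aa was at 700 against 69.8 CPM (log2 3.33) and the invariant chain Cd74 at 1013 against 158 CPM (log2 2.68). B-lineage cells held 511 CPM of H2-Aa and 1361 CPM of Cd74, so Siglech-positive cells were near them. The costimulatory genes Cd80 and Cd40 had no UMI in the Siglech-positive cells of either library and Cd86 had 1 in each.

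Markers of cDC were split, with 8 of 13 higher and 5 lower in Ctrl without any floor, and 6 and 7 in cKO. Clec10a was at 182 against 5.24 CPM (log2 5.11), Clec9a at 101 CPM (log2 6.07) and Cd209a at 91.9 against 1.33 CPM, all lectins, and the integrin Itgax (CD11c), which pDC carry at a low level, was at 71.7 against 2.89 CPM. The cDC marker Xcr1 had no UMI in the Siglech-positive cells of either library, and the cDC factors Zbtb46 and Batf3 had 1 each in Ctrl and none in cKO. The whole list of 13 took 0.0583% of the UMIs of Siglech-positive cells and 0.0123% of those of other Ctrl cells, with Clec10a its most abundant gene. Of 10 T and NK cell markers, 2 were higher and 8 lower in Ctrl without any floor, and 1 and 9 in cKO. In Ctrl 6 of the 10 had no UMI in Siglech-positive cells. The killer-cell lectin Klrd1, at 135 against 2.83 CPM, was higher, while Nkg7 was at 26.9 against 311 CPM.

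Genes of the lymphoid progenitor list were split. Of 13 lymphoid progenitor and recombination genes, 7 were higher and 6 lower in Ctrl without any floor, 5 of them at 0. The 6 that passed the floor did so only through the Siglech-positive side, which makes them higher by construction, 4 of them at least 4-fold. Blnk, an adaptor below the B-cell receptor, was at 215 against 14.9 CPM, Il7r at 258 against 14.1 CPM (log2 4.20) and Dntt, the terminal transferase, at 128 against 28.5 CPM (log2 2.17). In the Siglech-positive cells of Ctrl, Rag1, Rag2 and Vpreb1 had no UMI. In those of cKO, Rag1 had 2 UMIs, in 16.7% of the 12 cells, Vpreb1 had 1 and Rag2 had none. Dntt was found in 34.0% of the Ctrl cells, and in thinned cells in 18.6% against 1.91% of the others.

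Immunoglobulin constant genes went both ways. Ighm was at 1159 against 321 CPM (log2 1.85) and Iglc3 at 265 against 46.3 CPM (log2 2.51), whereas Igkc was at 789 against 4055 CPM (log2 -2.36), Igha at 603 against 2331 CPM (log2 -1.95) and Jchain at 83.0 against 479 CPM. Iglc3 was at 453 against 6.87 CPM in cKO and was found in 44.3% of the Ctrl cells. In thinned cells it was found in 25.8% of Siglech-positive and 3.14% of other Ctrl cells, and B-lineage cells held 835 CPM of it. A single B-lineage cell held 1856 of the 3242 Iglc3 UMIs of the other Ctrl cells. Without it these were at 19.8 CPM (log2 3.74) and B-lineage cells at 254 CPM, close to the Siglech-positive cells. The lambda gene Iglc1, at 85.2 against 137 CPM (log2 -0.68), also rested on 1 B-lineage cell with 4767 of 9568 UMIs, and without it the other cells were at 68.6 CPM and the ratio changed side (log2 0.31).

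Among growth factor receptors, Flt3, on whose ligand pDC are known to depend, was at 191 CPM in Siglech-positive cells, 53.4 CPM in progenitors, 9.72 CPM in monocytes and 2.82 CPM in B-lineage cells. Of 16 receptors, 8 were higher and 8 lower in Ctrl without any floor. Of the 9 that passed it, 6 did so only through the Siglech-positive side and 3 only through the other cells, which sets their directions. At least 4-fold higher were 4 of the 9 and at least 4-fold lower was 1, against 9.07% and 3.16% of all 1996 genes. Csf2rb2 was at 135 against 9.77 CPM (log2 3.78). Kit, the receptor by which part of the library was enriched, was at 13.5 against 77.9 CPM and was found in 4.12% of the Ctrl cells, Csf3r was at 58.3 against 228 CPM (log2 -1.97) and Ifngr1 at 38.1 against 175 CPM (log2 -2.20). Of 17 trafficking receptors, 12 were higher and 5 lower in Ctrl without any floor. The floor was passed by 10, 4 of them only through the Siglech-positive side and 1 only through the other cells, which sets the directions of these. Of the 10, 5 were at least 4-fold higher (among them Ccr9, Itgb7 and Selplg) and 1, the neutrophil receptor Cxcr2, at least 4-fold lower. Cxcr4, the retention receptor of the marrow, was at 91.9 against 98.5 CPM (log2 -0.10, -0.58 to 0.34).

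pDC have an extended secretory apparatus, but its genes were close to the background of the library. Of 29 secretory and unfolded protein response genes 23 passed the floor, none was 4-fold and 2 (Herpud1 and Atf6) were at least 2-fold higher (median log2 0.31 against 0.24 over all genes). Xbp1, the factor that expands the endoplasmic reticulum, was at 217 against 121 CPM (log2 0.85). Its level was 281 CPM in B-lineage cells and 154 CPM in monocytes. Of 16 apoptosis regulators, 6 were higher and 10 lower in Ctrl without any floor. Bcl2, a survival gene, was at 159 against 40.7 CPM (log2 1.97), and the other that passed the floor, Mcl1, had a log2 ratio of -0.24.

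**Figure D3:**
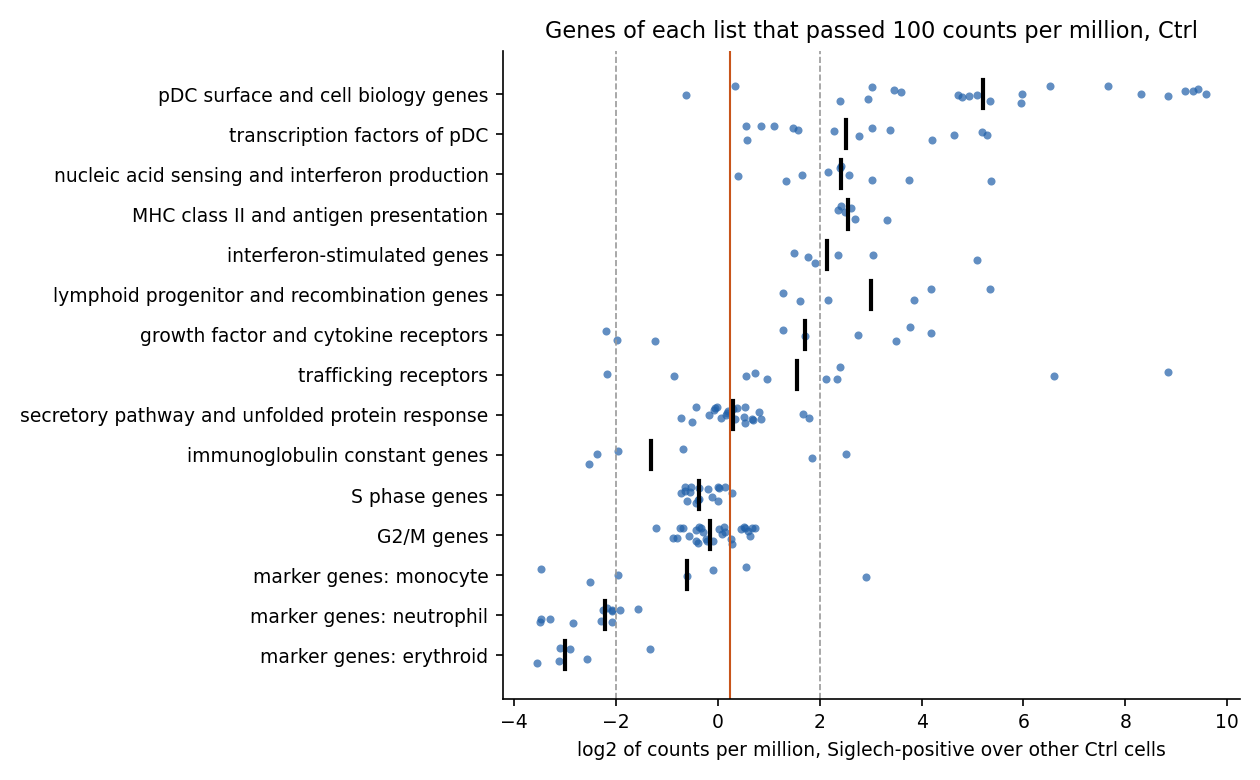
Log2 ratio of CPM, Siglech-positive over other Ctrl cells (horizontal axis), for the genes of each list that passed 100 CPM and have UMIs on both sides, one point per gene. Black bars are list medians, the orange line is the median of all 1996 genes (0.24), and dashed lines mark 4-fold, past which lie 20 of 22 surface genes, 6 of 6 MHC class II genes and no cycle gene.

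Among genes with at least 500 CPM in the other cells, the 10 lowest ratios included granulocyte genes such as Elane, the red cell genes Hbb-bs and Hba-a1, and Igkc. Under that floor Nkg7 (log2 -3.53) and Fn1 (log2 -3.47) were as low. Elane, a neutrophil granule protease, was at 291 against 3261 CPM (log2 -3.48), Mpo at 466 against 3352 CPM, Lyz2 at 888 against 4687 CPM (524 CPM without the 3 cells rich in neutrophil genes) and the haemoglobin gene Hbb-bs at 152 against 1326 CPM. All 12 neutrophil genes were at least 2-fold and 10 at least 4-fold lower. The most abundant transcripts of Siglech-positive cells were the ribosomal RNA-like Gm42418 (66462 CPM) and Malat1 (17246 CPM), followed by S100a9 (14483 CPM, 7795 CPM without the 3 cells rich in neutrophil genes, or 6092 CPM without all cells over 5% neutrophil UMIs as well).

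Whether fewer Siglech-positive than other cells passed a threshold on cycle genes depended on the threshold. A cell was counted as cycling when 97 S phase and G2/M genes took at least 1% of its UMIs. This held for 19 of 97 Siglech-positive Ctrl cells (19.6%, 12.2 to 28.9), 29.9% of B-lineage cells, 45.3% of monocytes, 64.3% of progenitors and 40.6% of all other Ctrl cells. In cKO it held for 3 of 12 (interval 5.49% to 57.2%) against 33.6% of the others. The threshold is a range on a score, with 2 Siglech-positive Ctrl cells close to it, and at 2% the shares were 12.4% (6.56 to 20.6) and 13.7%, which overlap. At 2% the order of the types changed as well, with 9.91% of progenitors, 24.2% of B-lineage cells and 30.2% of monocytes in Ctrl, and in cKO the 3 of 12 cells stood against 5.08% of the others, on the opposite side from 1%. Over sums, no S phase or G2/M gene passed 4-fold in Ctrl, with medians of -0.38 over 17 and -0.15 over 28 genes.

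The Siglech-positive cells were not uniform. Ccr9 was detected in 69 of the 97 Ctrl cells (median 2 UMIs, highest 14), against 0.931% of other Ctrl cells, and the 28 cells without it had a median of 3783.5 UMIs against 3490, with a wider spread (quartiles 2010 and 5782.75 against 2385 and 5296, means 5223 and 4345). Of the cells with Ccr9, 5 of 69 were cycling (7.25%, 2.39 to 16.1), and of those without it 14 of 28 (interval 30.6% to 69.4%). The median Siglech count was 9 UMIs with Ccr9 and 5 UMIs without it. In cKO, 1 of 9 cells with Ccr9 and 2 of 3 without it were cycling. These classes were cut from the same counts that are then described, so the values carry no test.

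MHC class II separated the same classes. The genes H2-Aa, H2-Ab1, H2-Eb1 and Cd74 together had 997 UMIs in the 69 Ccr9-positive Ctrl cells and 32 UMIs in the 28 cells without Ccr9, which is 3326 and 219 CPM. At least 1 such UMI was found in 60 of 69 cells (87.0%, 76.7 to 93.9) and in 13 of 28 (46.4%, 27.5 to 66.1). In cKO the sums were 287 UMIs in 9 cells and 2 UMIs in 3 cells, or 5086 and 79.4 CPM, and 3319 CPM without the 1 cell that held 130 of the 287. Both libraries thus had their class II transcripts mainly in cells that also held Ccr9.

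Over 2188 genes with at least 100 CPM in either Ctrl class, 193 were at least 2-fold higher (8.82%) and 280 at least 2-fold lower (12.8%) in the cells with Ccr9, with a median log2 ratio of -0.16. The MHC class II list had 5 of 7 genes higher (median 3.73) and the surface list 12 of 24 (median 1.02), Ccr9 itself, which made the split, among them. Within cells that do not cycle 9 of 25 surface genes were higher and 1 lower (median 0.23), against 10.5% higher and 8.55% lower of all 2000 genes (median -0.02). The S phase list had 24 of 24 lower (median -2.20) and the G2/M list 15 of 32 lower and 1 higher (median -0.96). H2-Aa was at 1007 against 68.4 CPM (log2 3.88, 2.98 to 4.96) and Klk1 had 135 UMIs against 1. Cd4 was at 183 against 13.7 CPM and Iglc3 at 377 against 34.2 CPM (log2 3.46), while the replication genes Pcna (133 against 595 CPM), Uhrf1 and Hells and the linker histone gene Hist1h1b (73.4 against 1655 CPM) were lower.

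Irf8, Runx2 and Tcf4 varied less between these classes. Irf8 was at 3903 CPM with Ccr9 and 3583 CPM without it (log2 0.12, -0.03 to 0.27), Runx2 at 1144 and 1190 CPM (log2 -0.06) and Tcf4 at 2619 and 1942 CPM (log2 0.43, 0.23 to 0.63). Ly6d was at 1131 and 1374 CPM (log2 -0.28). Of 14 pDC factors, 4, Spib among them, were at least 2-fold higher with Ccr9 and none lower (median 0.18). Over all 2188 genes 8.82% were higher and 12.8% lower. Bst2 lay between, at 2332 and 1374 CPM (log2 0.76).

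Other measures moved with the same split. The neutrophil list took 4.73% of the UMIs with Ccr9 and 1.54% without it, with 7 of 11 of its genes at least 2-fold higher. Within cells that do not cycle 1 of 12 was higher and 1 lower (median -0.22), near the 10.5% and 8.55% of all genes there. Without the 3 cells rich in neutrophil genes these shares were 2.29% and 1.46%, and the class II level was 3488 against 208 CPM. Cycling was 5.97% against 51.9% then. Cycling itself also moved with class II. Among cells that do not cycle, 64 with Ccr9 and 14 without it, class II had 951 against 11 UMIs (3883 against 349 CPM), found in 85.9% and 42.9% of cells, although the 14 were shallower (median 1991 against 3350 UMIs). Klk1 had 131 UMIs against 0 there, and Cd74 and H2-Aa had log2 ratios of 4.16 and 2.61 (1.47 to 4.07 for H2-Aa). Tcf4 changed side among these cells, with a log2 ratio of -0.70 (-0.96 to -0.43), so its higher level with Ccr9 over all 97 cells does not hold within cells that do not cycle.

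**Figure D4:**
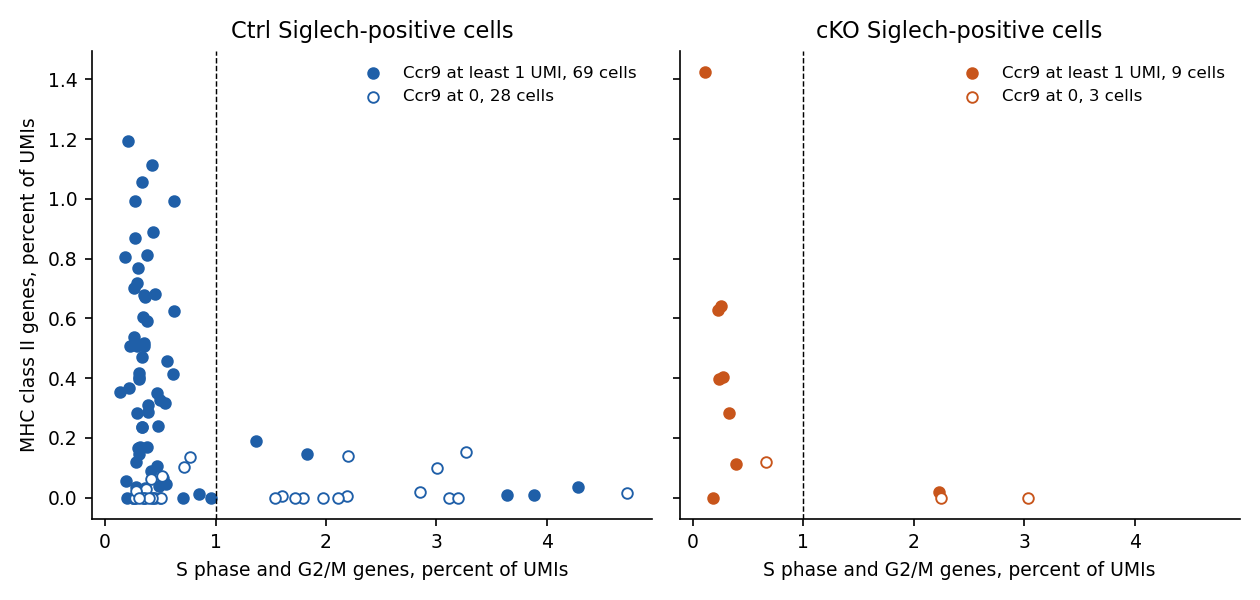
MHC class II UMIs (H2-Aa, H2-Ab1, H2-Eb1 and Cd74) as a percentage of UMIs (vertical axis) against the percentage of UMIs from S phase and G2/M genes (horizontal axis), one point per Siglech-positive cell, for Ctrl and cKO. Cells right of the dashed line at 1% are counted as cycling, and high class II values lie to its left in cells with at least 1 Ccr9 UMI (filled).

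Cycling cells differed in surface genes too. The 19 cycling Ctrl cells were deeper than the 78 others (median 7146 against 3009.5 UMIs), and 18 of 24 surface genes were at least 2-fold lower in them (median log2 -1.66), against 12.5% lower and 15.7% higher of all 2229 genes (median 0.09), with class II at 395 against 3481 CPM. Gm21762 was at 11.8 against 365 CPM and Iglc3 at 17.7 against 416 CPM. Cd209d had no UMI in cycling cells against 70 UMIs in the others. Markers of other cell types moved with this split. Of 5 monocyte markers 3 were at least 2-fold higher and 0 lower (median log2 1.43), and of 3 cDC markers 2 were lower (median -2.30). The neutrophil list took 4.45% of UMIs in cycling cells and 3.21% in the others, or 1.16% and 2.48% without the 3 cells rich in neutrophil genes. Siglech itself was at 914 against 2728 CPM, with a median of 6 against 8 UMIs. Deeper cells can pass the threshold of 3 UMIs at a lower level, and the part of this in the Siglech ratio was not tested. Depth and cycling moved together, since 18 of the 48 Ctrl cells with more UMIs than the median were cycling, against 1 of the 49 others. The part of depth in the other ratios was not tested either.

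A further split followed receptors of progenitors. Flt3, Kit or Cd34 was detected in 42 of the 97 Ctrl cells, which were deeper (median 5547 against 2668 UMIs) and of which 15 were cycling, against 4 of the other 55. The factor Sox4 was at 369 against 44.4 CPM in them and Klf4 at 154 against 11.1 CPM, while Klk1 was at 105 against 600 CPM and Cd4 at 45.1 against 250 CPM. The neutrophil list moved with this split, at 1.89% of UMIs with these receptors and 6.33% without, and Camp was at 1181 against 7841 CPM. Without the 3 cells rich in neutrophil genes the shares were 1.85% and 2.26%, and Camp was at 1129 against 2028 CPM. Ly6d was detected in 61 cells and not in 36, with 15 and 4 cycling and median depths of 4315 and 2431.5 UMIs. The neutrophil list took 2.00% of UMIs with Ly6d and 6.91% without (Camp at 1317 against 8764 CPM). Without the 3 rich cells the shares were 2.00% and 2.01%, and Camp was at 1317 against 1800 CPM. Detection of a gene grows with depth, and the part of depth in these splits was not tested.

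The Siglech-positive cells of the library labelled cKO were compared with those of Ctrl over 896 genes with at least 200 CPM on one side and 20 UMIs in all. Of these, 25 were at least 2-fold higher (2.79%) and 29 at least 2-fold lower (3.24%), with a median log2 ratio of 0.18. With median-of-ratios scaling the counts were 14 higher and 46 lower, and with means of per-cell proportions 54 were higher, so the balance of the directions depended on the scaling. The markers of the cells were among those with small ratios, with Tcf4 at -0.06 and Irf8 at 0.11, and Bst2 at 0.71 and Ccr9 at -0.48. Cd74 stood at 1936 CPM in cKO and 1013 CPM in Ctrl (log2 0.93), and at 1283 CPM in cKO without the 1 cell that held 65 of its 158 UMIs. The cKO sums rest on 12 cells and 81612 UMIs, in which 3 UMIs are 36.8 CPM.

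The gene with the largest ratio was Cd68, a lysosomal membrane protein, with 27 UMIs in each sum, or 331 CPM in cKO and 60.5 CPM in Ctrl (log2 2.45, 1.63 to 3.28), found in 91.7% and 19.6% of cells. Its ratio in all other cells was 0.77. Sys1, Tomm22, Ssr2, Ndufa8, Ifi30 (a lysosomal thiol reductase, log2 1.35), Gm34680, Cdkn2d, Ssr4 (log2 1.25) and Pycard followed. Lower in cKO were Igha (log2 -4.04, against -1.97 in all other cells), Igkc (-2.10, against -0.34), Hba-a2 (-2.11, against -1.55) and Kcnq1ot1 (-1.80, against -1.86) among the 10 with the lowest ratios. Zfp106, Cdk6 and Ankrd12 were lower too (-1.73, -1.72 and -1.65, against -0.82, -0.84 and -0.73), as were the myeloid gene Chil3, counted in the monocyte list, and the neutrophil genes Camp and Pglyrp1 (-2.33, -1.86 and -1.79), whose ratios in all other cells were above 0. Without the 3 Ctrl cells rich in neutrophil genes the values of these were -1.40, -0.46 and -0.85. Igha and Cd68 were at -4.05 and 2.36 without them.

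**Figure D5:**
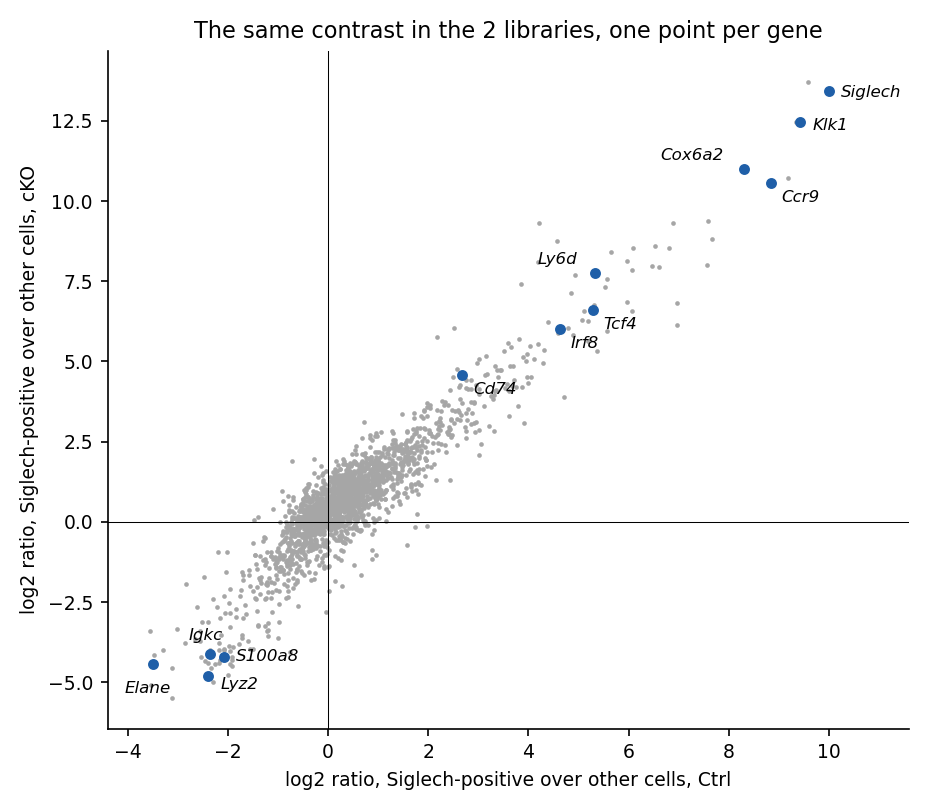
Log2 ratio of CPM, Siglech-positive over other cells, in Ctrl (horizontal axis) and in cKO (vertical axis), one point per gene with at least 100 CPM on one side in Ctrl and UMIs in all 4 sums. Named genes are blue, and Tcf4, at 5.29 in Ctrl and 6.61 in cKO, and Elane, at -3.48 and -4.44, lie on the same side of 0 in both.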

How the data were processed

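Per the labels, bone marrow cells of 1 control and 1 Map4k4-cko library were processed with a droplet 3′ kit (BMKMANU DG1000). The files were deposited as whole UMI counts for each listed gene in each barcode already called as a cell, without normalization, and the submitters' processing notes name Cell Ranger 5.0.0 and mm10. Over 32285 listed genes, both tables were read as sparse matrices, and each table was used whole.

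Kept barcodes had 200 to 9000 detected genes, at most 30% mitochondrial UMIs and at least 1000 UMIs. Those with at least 3 Siglech UMIs were Siglech-positive. The members and the 28 gene lists were chosen with earlier results of these data known. Of 440 listed genes, 437 matched by symbol. No doublet caller was run and none was removed, and an alternative leaves out cells in the top 5% of UMIs of their library or with over 2% neutrophil, B-cell or erythroid UMIs.

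UMIs were summed over cells and scaled to CPM. Log2 ratios carry 95% exact binomial intervals of the 2 sums and shares carry Clopper-Pearson intervals, both for counting error only. Genes needed 100 CPM in one sum, and a gene with 0 UMIs on one side was ranked at 3 UMIs. Named genes were those of the lists, the 30 highest ratios (at least 100 CPM in Siglech-positive cells), the 10 lowest (at least 500 CPM in the others), the 15 most abundant, the 10 largest ratios in each direction of each split and of cKO over Ctrl (at least 200 CPM and 20 UMIs), and the 10 genes most correlated with Siglech.

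Alternatives varied the Siglech floor, the UMI floor, the mitochondrial ceiling, thinning to 1000 UMIs, scaling, CPM floor, fold, comparison cells, cycling threshold and possible doublets. Leaving out 3 cells rich in neutrophil genes, or also all cells over 5% neutrophil UMIs, leaving out the 1 cell that holds most UMIs of a gene, and the Ccr9 split within cells that do not cycle, were chosen after seeing the data. Some genes are not reported here. Promoters were matched by symbol to RefSeq windows on GRCm38.p6. The interval and sign calculations were tested on simulated data. Software versions were numpy 2.4.6, matplotlib 3.10.9, scipy 1.17.1 and pandas 2.3.3, run under Python 3.11.15.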

Additional observations from a re-analysis of the deposited data

Results flagged for a closer look

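Outside the filters of the report, 7 Ctrl barcodes also held at least 3 Siglech UMIs, and none did in the library labelled cKO. They stand out because they lie in data that the comparisons left out. All 7 fell under the floor of 1000 UMIs, with 657 to 991 UMIs each, and Tcf4 was detected in 5 of them and Irf8 in 5.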

How the results depend on the processing

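No paired analysis was possible because each group has 1 library. For the same reason no replicate could be left out. With cycle genes at 2% of UMIs the log2 ratio of cycling shares, Siglech-positive over other cells, was -0.15 in Ctrl against -1.05 at 1%, and it reversed in cKO (2.30 against -0.43), against progenitors (0.32 against -1.72 in Ctrl, 1.88 against -1.14 in cKO) and against cKO monocytes (0.34 against -0.52). Apart from the Ccr9 split within cells that do not cycle, no gene followed over the alternatives below reversed from at least 4-fold. With the same exception, no list median reversed from at least 2-fold. Leaving out 1 other cell turned Iglc1 from -0.68 to 0.31, an alternative chosen after seeing the data. Within cells that do not cycle, some ratios between cells with and without Ccr9 changed side, that of Tcf4 (log2 0.43 to -0.70), the median of the pDC factor list (0.18 to -0.11) and that of the neutrophil list (1.39 to -0.22). The share of Siglech-positive cells in Ctrl was 1.42% when cells were thinned to 1000 UMIs and 1 Siglech UMI sufficed, against 1.10%, and the log2 ratio of the shares ranged from -2.66 to -2.26 over the alternatives. The count of 181 higher and 63 lower genes in Ctrl became 303 and 120 with a floor of 50 CPM, 100 and 41 with 200 CPM, and 437 and 168 at 2-fold, as fewer or more genes qualify. The lower count was 134 with means of per-cell proportions and 95 with possible doublets left out, which keeps 54 Ctrl cells, and without the 3 cells rich in neutrophil genes, an alternative chosen after seeing the data, the counts were 193 and 86. For cKO over Ctrl, the 25 higher and 29 lower genes became 54 higher with per-cell proportions, 14 higher and 46 lower with median-of-ratios scaling, and 39 higher without possible doublets. The cycling share in Ctrl was 34.0% with a threshold of 0.5% of UMIs, against 19.6% at 1%. The causes of these moves were not tested unless stated. Of 200 listed and leading genes followed over 8 settings, 95 were past 4-fold, of which 16 fell under it in some setting. In the 81612 UMIs of the cKO cells a gene at 0 may lie at up to 36.8 CPM, which limits comparisons of low genes.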
